A study of Mus musculus with 74 samples.

Results

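The regions described here are 3446 distal chromatin contacts that were listed in mouse progenitor cells and in erythroid-induced control cells but not in erythroid-induced cells with a hairpin against Stag2. They came from 3 deposited lists of promoter capture Hi-C contacts, which together held 244804 different pairs of restriction fragments. A pair was taken when both fragments lay on one chromosome with 50000 bp to 1 Mb between their midpoints and when the second fragment was itself never captured in any list. It also had to score 6 or more in the HPC list and in the Ery Luc list and to be absent from the Ery shStag2 list. Of 150733 distal pairs in any list, 19743 met the score and distance limits and are called eligible here. The 3446 members were those of them missing from the Ery shStag2 list, and the other 16297 stayed listed there. The members were chosen by these scores and by absence from the third list, so both are given as a description and nothing was tested with them.

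All cells were HPC-7, a mouse line with properties of blood stem and progenitor cells. The HPC list came from untransduced HPC-7 cells grown with stem cell factor (SCF) at 100 ng/ul. The Ery Luc and Ery shStag2 lists came from cells that carried an inducible short hairpin against luciferase (Luc, the control) or Stag2 and were grown with erythropoietin (EPO) at 4 U/l and SCF at 20 ng/ul. Doxycycline, which switches the hairpins on, was labelled as given for 72 h, except for 1 Ery Luc library labelled 73 h. The HPC cells thus differed from both Ery groups in transduction, doxycycline and SCF as well as in EPO. Each list pools 2 libraries of 1 cell line. There is 1 list per condition, so no replicate spread could be set beside a difference and no p-value is given. The lists held 112183 (HPC), 123042 (Ery Luc) and 130734 (Ery shStag2) pairs, all scoring 5 or more, and the sequencing depth behind them is not given in the sources used here. Absence from a list therefore means a score under 5 or no call, and not the absence of a contact. A check of the knockdown itself was not analysed here.

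Cohesin is a ring-shaped complex that extrudes chromatin loops and is halted at sites bound by CTCF. Its ring of SMC1A, SMC3 and RAD21 carries 1 of the alternative subunits STAG1 or STAG2, and STAG2 is recurrently mutated in myeloid malignancies. Promoter capture Hi-C cross-links nuclei, cuts the DNA (here with HindIII), ligates fragments that lie close together and then enriches the ligation products of promoters. Each contact has a captured fragment and an other end, which may hold an enhancer, a gene body or neither.

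Sequences at 3 captured starts and 1 other end are shown because the results below turn on these loci. Each is the 250 bases before an annotated start, 5′ to 3′ on the gene's strand, from RefSeq (GRCm38.p6), with every CpG in capitals. The Hhex window is chr19:37434591-37434840 (plus strand), that of Nr4a2 chr2:57124004-57124253 (minus strand) and that of Gata2 chr6:88193641-88193890 (plus strand), and all 3 lie on the captured fragment. The Slc7a7 window, chr14:54410204-54410453 (minus strand), lies inside the other end of a member captured at Abhd4 and Dad1. It precedes 1 of several annotated Slc7a7 starts.
Hhex: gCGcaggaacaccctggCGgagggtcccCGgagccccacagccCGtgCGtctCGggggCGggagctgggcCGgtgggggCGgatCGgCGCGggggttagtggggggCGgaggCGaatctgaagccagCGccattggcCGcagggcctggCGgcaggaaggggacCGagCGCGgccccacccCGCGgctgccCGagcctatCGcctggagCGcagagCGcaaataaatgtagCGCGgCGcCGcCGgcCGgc
Nr4a2: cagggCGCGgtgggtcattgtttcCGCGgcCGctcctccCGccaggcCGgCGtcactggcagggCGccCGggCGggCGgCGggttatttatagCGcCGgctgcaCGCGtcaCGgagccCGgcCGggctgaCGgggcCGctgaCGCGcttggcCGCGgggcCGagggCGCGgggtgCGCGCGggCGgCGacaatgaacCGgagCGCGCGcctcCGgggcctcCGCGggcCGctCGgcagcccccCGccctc
Gata2: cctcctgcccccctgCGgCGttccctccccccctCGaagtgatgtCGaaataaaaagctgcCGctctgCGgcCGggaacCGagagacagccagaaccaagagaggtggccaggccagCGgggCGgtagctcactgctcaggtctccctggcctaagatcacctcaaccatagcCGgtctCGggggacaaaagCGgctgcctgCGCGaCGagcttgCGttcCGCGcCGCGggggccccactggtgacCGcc
Slc7a7: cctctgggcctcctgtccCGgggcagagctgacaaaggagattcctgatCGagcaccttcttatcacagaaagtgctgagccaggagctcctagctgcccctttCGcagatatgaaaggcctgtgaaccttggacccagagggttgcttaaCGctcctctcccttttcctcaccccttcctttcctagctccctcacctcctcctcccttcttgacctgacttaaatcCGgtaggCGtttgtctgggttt
The captured starts of Hhex, Nr4a2 and Gata2 held 32, 44 and 22 CpG, and the Slc7a7 start in the other end held 6. Promoter windows of 300 bases (250 before and 50 after a start) were matched to 1491 of the 2230 captured fragments with a member. Their 2126 windows held 19.7 CpG on average, the 2215 windows of eligible captured fragments without a member 19.5, and all 32851 windows known to RefSeq's table averaged 12.4. A GATA, an ETS and a CTCF-like motif were searched on both strands of these windows. The GATA motif AGATAA was in 6.73% of windows with members, 7.54% of those without and 11.2% of all. The ETS motif CCGGAA was in 24.7%, 25.2% and 14.9% in the same order. The CTCF-like motif, a core with fixed and free positions, was in 2.78%, 3.30% and 2.43%. In CpG number and in these 3 motifs, captured promoters with and without members differed by less than 1 percentage point or 1 CpG.

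Of the eligible contacts, 17.5% were missing from the Ery shStag2 list (exact Clopper-Pearson interval 16.9% to 18.0%, which covers counting error only, since neighbouring fragments are not independent). The same rule with the roles of the lists exchanged gives the yardstick for this share. Of 19780 distal contacts scoring 6 or more in HPC and Ery shStag2, 3584 (18.1%, 17.6% to 18.7%) were missing from the Ery Luc list. Of 21663 scoring 6 or more in Ery Luc and Ery shStag2, 5501 (25.4%) were missing from HPC. The share missing only with the Stag2 hairpin was therefore close to the share missing only from the control. When HPC was not asked for, 17263 of 44152 distal Ery Luc contacts scoring 6 or more (39.1%) were missing from the Ery shStag2 list. The share with these lists exchanged was not counted, so this value has no yardstick here.

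Members were mostly contacts of modest score. Their lower score (the smaller of the HPC and Ery Luc scores) had a median of 6.67, against 7.87 for the contacts that stayed listed. Of contacts whose lower score was from 6 to under 6.5, 33.7% were members. The share was 26.8% from 6.5, 18.3% from 7, 8.75% from 8, 2.15% from 10 and 0.112% (1 of 892) from 15. The shares missing only from Ery Luc followed the same course, at 34.6%, 27.3%, 18.3%, 10.8%, 2.59% and 0 of 978 contacts. At the score minimum, the Nap1l1 member scored 6 in HPC and 9.16 in Ery Luc, the Cdca7l member 6 and 6.15, and the Gramd4 member 6 and 7.68. Just outside it, contacts of Cacna1i (15.23 and 5.99), Gem (11.1 and 5.99) and a captured fragment with no protein-coding start or end (12.6 and 5.99) missed the rule. There were 326 members with a lower score under 6.1, and 354 otherwise fitting contacts scored from 5.9 to under 6.

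By distance, the 3 kinds of missing contact took different courses. Of eligible contacts spanning 50 to 100 kb, 18.1% (16.9% to 19.4%) were missing only from Ery shStag2, and of those spanning 500 kb to 1 Mb, 15.8% (13.6% to 18.2%). The 4 classes between lay from 17.0% to 18.0%. Contacts missing only from Ery Luc went from 13.7% (12.5% to 14.9%) at 50 to 100 kb to 26.6% (24.1% to 29.1%) at 500 kb to 1 Mb, and those missing only from HPC from 14.6% to 47.4%. In the class from 50 to 100 kb the share missing with the Stag2 hairpin was thus above both others, and in the farthest class it was below both. The median span was 180.4 kb for members and 182.6 kb for contacts that stayed listed.

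**Figure D1:**
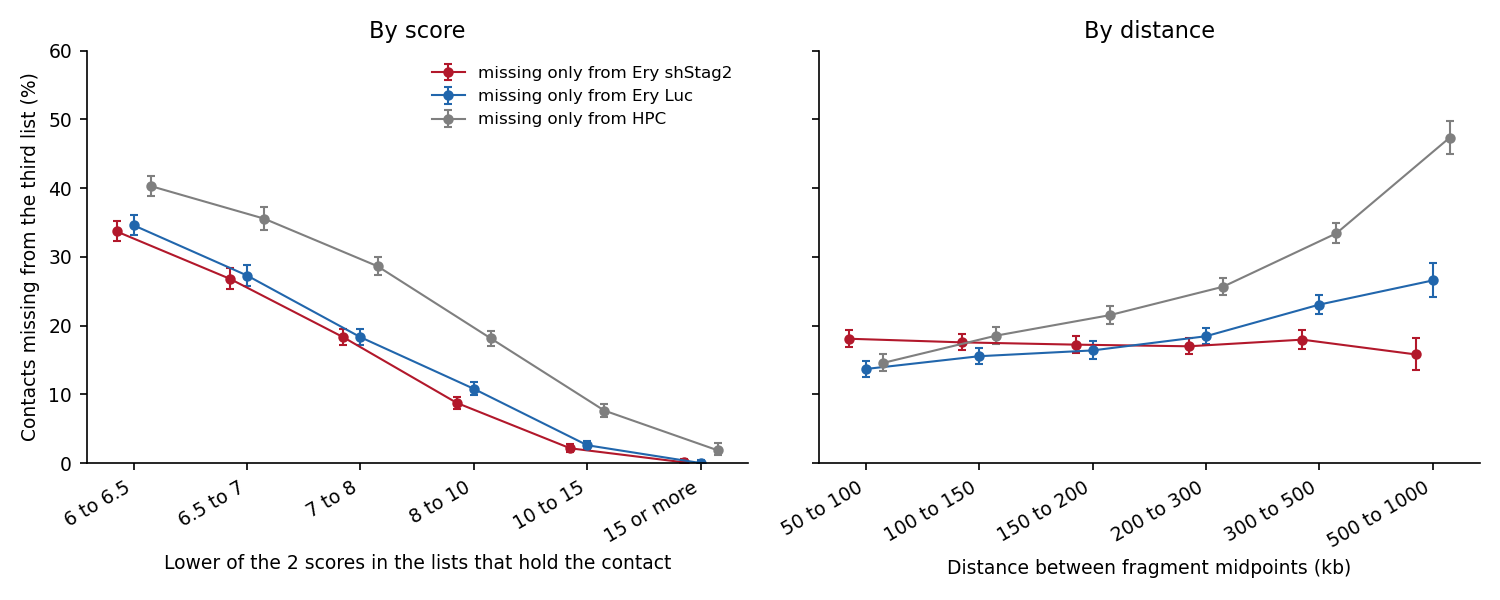
Share of eligible distal contacts missing from the third list (%, vertical axis), by the lower score in the lists that hold them (left) and by the distance between fragment midpoints in kb (right). Points are shares for each missing list and bars are exact 95% intervals for counting error. With score all 3 shares decline together, whereas with distance the share missing from Ery shStag2 stays between 15.8% and 18.1% and the other 2 climb.

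The 3446 members were spread over 2230 of the 4481 captured fragments with an eligible contact (49.8%). Of these, 1510 carried 1 member, 440 carried 2, 229 carried 3 or 4 and 51 carried 5 or more. The members met 3310 different other ends, and 127 other ends were met by 2 or more captured fragments. On 669 captured fragments every eligible contact was missing, but 566 of those had only 1 eligible contact and 23 had 3 or more. Of the 1328 captured fragments with 5 or more eligible contacts, 10 had 80% or more missing. By chromosome the share ran from 11.3% (9.41% to 13.5%) on chromosome 9 to 23.4% (20.3% to 26.7%) on chromosome 14, leaving out chromosome Y with 0 of 14.

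Most members had a listed neighbour. In the Ery shStag2 list, 3174 members (92.1%) had another contact of the same captured fragment whose other end lay within 20 kb, and 2075 (60.2%) had one within 5 kb. The median distance to it was 3.89 kb. The other 272 (7.89%, 7.01% to 8.84%) had none within 20 kb, and 12 of them had no contact of that captured fragment on the chromosome in the list at all. The same count in the Ery Luc list, leaving out the contact itself, gave 95.3% within 20 kb. Contacts missing only from Ery Luc had an Ery Luc neighbour within 20 kb in 93.3%. Members without a neighbour made up 11.0% of those with a lower score under 6.5 and 3.21% of those from 8 to 10, and they numbered 0 of 66 from 10 to 15. Other ends of members were also not empty: 62.4% were still met by another captured fragment in the Ery shStag2 list, against 64.3% in the Ery Luc list.

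**Figure D2:**
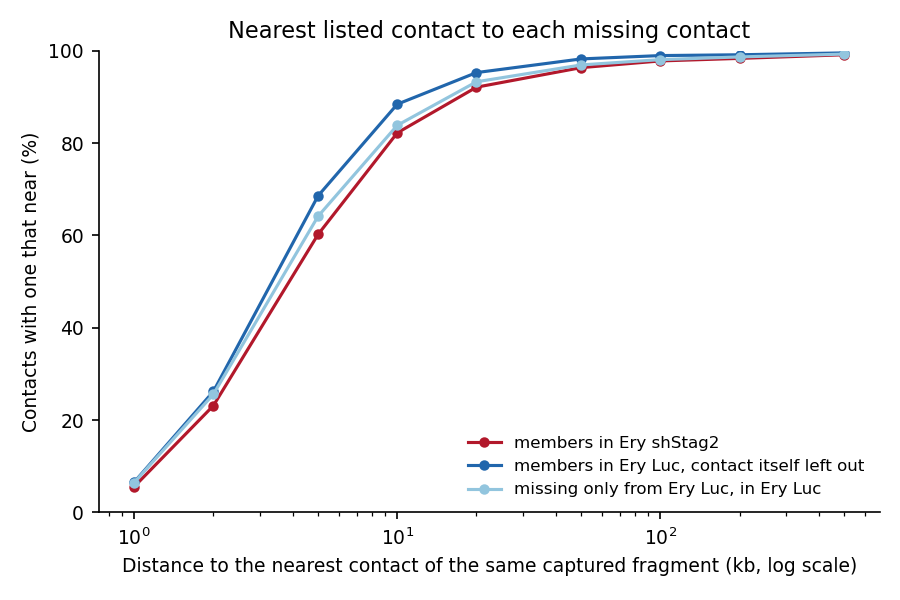
Cumulative share (%) of missing contacts that have a listed contact of the same captured fragment within the distance on the horizontal axis (kb, log scale). At 20 kb the curve for members in Ery shStag2 stands at 92.1%, that for members in Ery Luc with the contact itself left out at 95.3%, and that for contacts missing only from Ery Luc at 93.3%.

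The 20 members with the highest lower scores all had an Ery shStag2 neighbour within 10 kb, and 17 of them within 5 kb. The first joined chrX:143097539-143101470 to chrX:143443775-143445473, 345.1 kb away, with scores of 16.7 in HPC and 16.33 in Ery Luc. A contact 1.16 kb from it scored 10.32 in Ery shStag2. The second joined chr1:106540270-106542808 to chr1:106719573-106720929 (17.99 and 14.76), and its neighbour at 0.800 kb scored 13.46. The third linked the fragment of Cdca3, a cell division gene, and Usp5, a deubiquitinase gene, to Zfp384 197.5 kb away (15.15 and 13.9). Its neighbour, 5.96 kb away, scored 5.05. The others included Intu to Hspa4l, Npr1 to Ints3, Lhx9 to Dennd1b, Psmd1 (a proteasome subunit gene) to Ncl (nucleolin) and Top1 (topoisomerase I) to Lpin3. Fragments are named by a gene start or end on them, and no start was placed on the Top1 fragment. In the member from Abhd4 and Dad1 to the Slc7a7 start printed above, the other end is chr14:54409496-54410924. It scored 11.27 in HPC and 11.5 in Ery Luc, and its neighbour 2.11 kb away scored 6.28 in Ery shStag2. For these high-scoring members, the missing fragment lay beside fragments that were still listed.

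A run of neighbouring members was seen at Hhex, which encodes a homeobox factor of blood and endothelial progenitors. Its captured fragment, chr19:37432744-37435648, holds the Hhex start and had 20 distal contacts in HPC, 18 in Ery Luc and 5 in Ery shStag2. Of 11 eligible contacts, 8 (72.7%) were members. None was missing only from Ery Luc, but only the distal contacts at 89.4 and 129.8 kb scored 6 or more in HPC and Ery shStag2. These are too few for a share to set beside that of the members. All 8 members lay downstream of the gene, from 67.6 to 124.1 kb away, and 7 of them fell between chr19:37500680 and chr19:37520427. The top member, chr19:37508225-37514169, scored 12.49 in HPC and 10.26 in Ery Luc, and the nearest contact in Ery shStag2 was 12.4 kb away with a score of 6.68. The members on either end of that run scored 11.85 and 6.78 (67.6 kb) and 12.77 and 7.69 (85.0 kb) in HPC and Ery Luc. The eighth member, at 124.1 kb, scored 12.16 and 6.19. The 3 eligible contacts that stayed listed, at 89.4, 95.9 and 129.8 kb, scored 6.68, 5.23 and 6.70 in Ery shStag2. A contact with another captured fragment at 109.2 kb, which the rule left out, scored 13.14 in HPC, 13.22 in Ery Luc and 5.77 in Ery shStag2. From 67.6 to 85.0 kb the Hhex fragment thus had no listed contact in Ery shStag2, while beyond it a few remained.

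Ikzf2, which encodes Helios, a relative of the lymphoid factor Ikaros, had the most members of any captured fragment but kept most of its contacts. Its fragment, chr1:69682420-69693187, had 93 distal contacts in HPC, 84 in Ery Luc and 75 in Ery shStag2, and 12 of 50 eligible contacts (24%) were members. They were spread from 155.4 to 477.0 kb on 1 side, in 6 groups of other ends. Each of the 12 had an Ery shStag2 neighbour 0.845 to 17.7 kb away. Their scores ran from 6.71 to 10.21 in HPC and from 6.51 to 9.34 in Ery Luc, against top scores of 23.99, 27.08 and 22.27 for this fragment in HPC, Ery Luc and Ery shStag2. A further 4 contacts of it were missing only from Ery Luc.

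Nr4a2, an immediate-early nuclear receptor gene, had 5 members among 6 eligible contacts, all on the captured fragment chr2:57122312-57126112 over its start. They lay 55.0, 188.6, 190.3, 233.5 and 238.0 kb away. The contact at 233.5 kb, in Gpd2, scored 7.82 in HPC and 8.20 in Ery Luc, and that at 190.3 kb 11.26 and 6.33. The eligible contact that stayed listed, at 200.2 kb, scored 6.94 in HPC, 7.65 in Ery Luc and 6.38 in Ery shStag2. The 2 captured fragments of Nr4a2 together had 21, 20 and 13 distal contacts in HPC, Ery Luc and Ery shStag2. The Ery shStag2 ones included contacts listed in no other condition, such as 1 at 567.2 kb with a score of 10.51. A contact of the start with another captured fragment at 116.9 kb, outside the rule, scored 19.14 in HPC, 8.69 in Ery Luc and 10.03 in Ery shStag2.

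**Figure D3:**
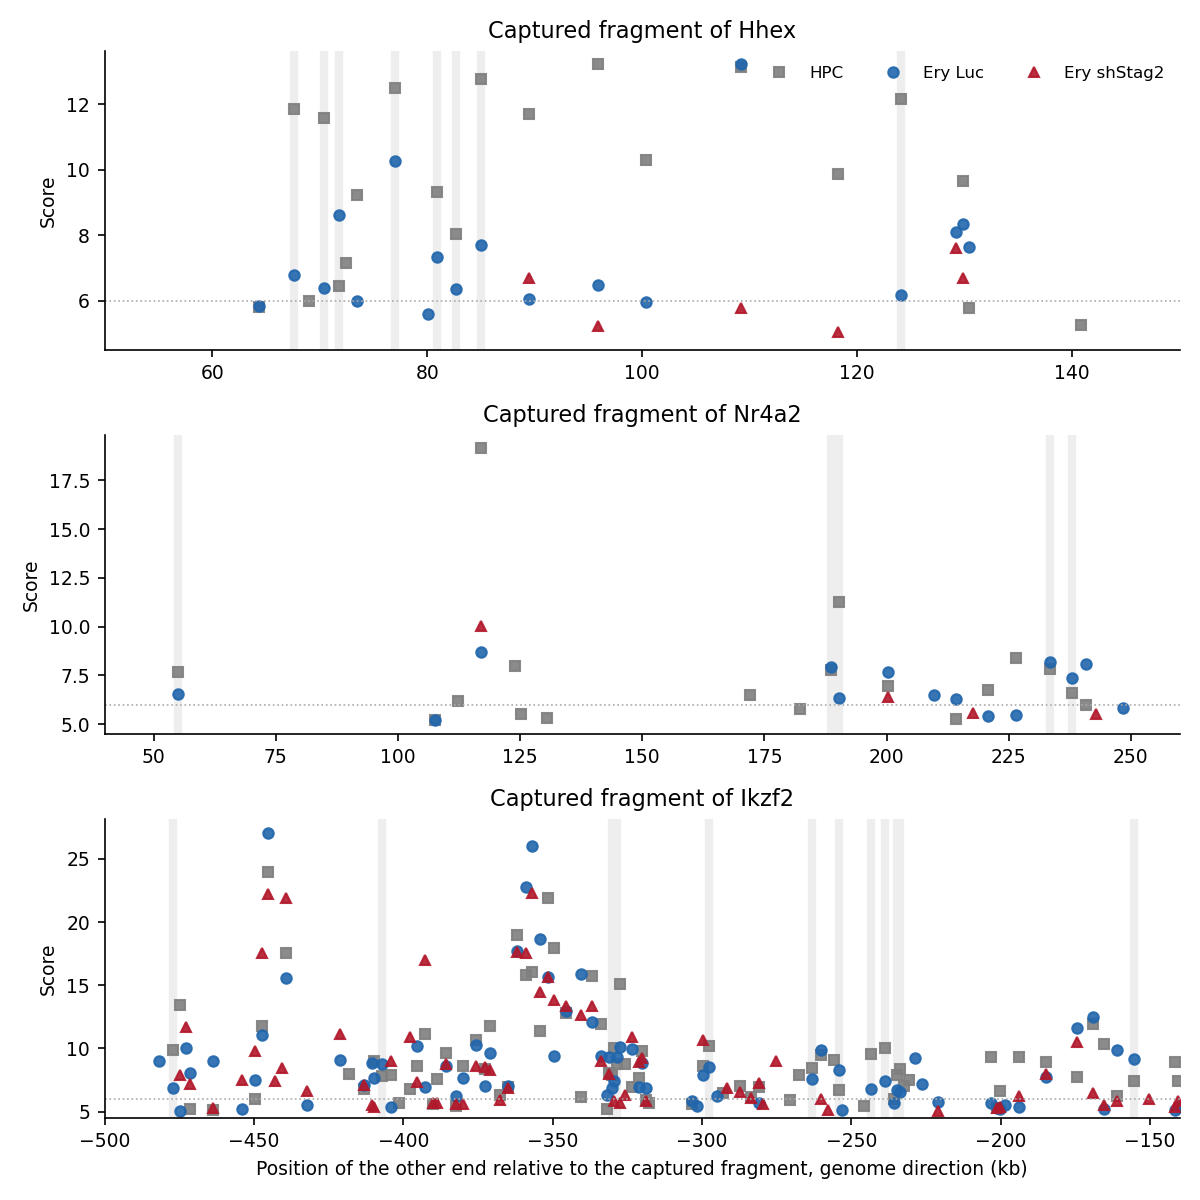
Scores (vertical axis, as the authors give them for each list) of contacts of the captured fragments of Hhex, Nr4a2 and Ikzf2 against the position of the other end in kb along the chromosome. Squares are HPC, circles Ery Luc and triangles Ery shStag2, grey bands mark members and the dotted line is the score minimum of 6. At Hhex no triangle stands among the 7 bands from 67.6 to 85.0 kb, whereas at Ikzf2 triangles stand beside the 12 bands.

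Rpf1, a ribosome biogenesis gene, came after Ikzf2 with 10 members among 19 eligible contacts on chr3:146518525-146523922, with 38, 31 and 18 distal contacts in HPC, Ery Luc and Ery shStag2. Its members lay 191.7 to 280.9 kb away in 3 groups, and the one with the highest lower score had 12.62 in HPC and 9.40 in Ery Luc. A fragment with no protein-coding start or end, chr10:111500555-111502178, also had 10, of 43 eligible contacts. Cdk15, a cyclin-dependent kinase gene, had 9 of 31 and 70, 40 and 27 distal contacts, and 3 of its members had no Ery shStag2 neighbour within 20 kb. The fragments of Psmg4 (a proteasome assembly chaperone gene), of Abhd4 and Dad1, of Hhex and 1 inside Ubap2 had 8 members each. Among the 8 windows of 500 kb with the most members, a choice that favours this direction, the share missing only from Ery shStag2 was above that missing only from Ery Luc in 6. In chr14:54000001-54500000, around Abhd4 and Dad1, 15 of 51 contacts were missing only from Ery shStag2 and 2 of 36 only from Ery Luc. In chr3:146500001-147000000, around Rpf1, these were 15 of 29 and 4 of 18. In 2 windows it was below, as in chr7:30500001-31000000, with 18 of 158 and 39 of 196. Among other ends, chr17:57313949-57316969 inside Vav1, a signalling gene of blood cells, had 4 members of 8 eligible contacts. They came from Gtf2f1, Khsrp and Slc25a41, Tnfsf9 and an unnamed fragment. In all, this other end had 11 contacts in HPC, 9 in Ery Luc and 6 in Ery shStag2.

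Gene lists were read by the captured fragments that hold an annotated start or end of their genes, against the 17.5% of all eligible contacts. The erythroid transcription regulators had 12 members of 104 eligible contacts (11.5%, 6.11% to 19.3%), and 14 of 103 were missing only from Ery Luc (13.6%). Gata2, a regulator of progenitors, had 2 members of 3 eligible contacts. They scored 6.67 in HPC and 7.32 in Ery Luc at 258.4 kb, and 7.79 and 6.33 at 260.9 kb. Its other eligible contact, at 239.7 kb, scored 12.62 in HPC, 7.55 in Ery Luc and 6.36 in Ery shStag2. Ikzf1, the Ikaros gene, had 3 members of 19, 2 of them upstream at 216.2 and 176.6 kb (14.11 and 6.89, 16.17 and 8.23) and 1 inside the gene. A separate captured fragment at chr11:11554401-11557844 had 2 of the 20 top members, with other ends at chr11:11675315-11679965 and, within Ikzf1, chr11:11737951-11739481. Klf1, which encodes the erythroid factor EKLF, had 1 eligible contact, and it was a member, to Dand5 (7.10 and 6.78). Klf13, Foxo3, Lmo2, Lyl1 and Zfpm1 had none, of 18, 10, 4, 4 and 2 eligible contacts.

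Globin and red cell membrane genes had 4 of 77 (5.19%, 1.43% to 12.8%), against 3 of 75 (4%) missing only from Ery Luc, and 45 of the 77 belonged to 1 gene. That gene, the erythroid carbonic anhydrase gene Car2, had 1 member among them, and 66, 66 and 86 distal contacts in HPC, Ery Luc and Ery shStag2. Heme and iron genes had 9 of 70 (12.9%, 6.05% to 23.0%), against 20 of 76 (26.3%) missing only from Ery Luc. Urod, a heme synthesis enzyme gene, had 3 adjoining members inside Tesk2, from 189.7 to 196.9 kb away, of 5 eligible contacts. The top one scored 10.3 in HPC and 7.66 in Ery Luc, and its distal contacts numbered 12, 15 and 7. Alad, another enzyme of this pathway, had 3 of 41, with 83, 89 and 93.

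Stem and progenitor regulators had 24 of 133 (18.0%, 11.9% to 25.6%), against 14 of 120 (11.7%) missing only from Ery Luc. Ikzf2 and Hhex supplied 20 of the 24, and Hlf, Id1, Mycn and Zfp36l2 had 1 each. Myeloid genes had 6 of 39 (15.4%), against 1 of 29 missing only from Ery Luc. Cebpe, a granulocyte factor gene, had 3 of 14. Spi1, which encodes PU.1, had 1 eligible contact on its 2 captured fragments, and it was a member, to Ddb2 (7.91 and 8.60). The start placed on that member's captured fragment was that of Mybpc3 and not of Spi1. The 2 fragments together had 9, 15 and 1 distal contacts in HPC, Ery Luc and Ery shStag2. Megakaryocyte and platelet genes had 7 of 25 (28%, 12.1% to 49.4%), against 6 of 24 (25%). The Gp5 and Gp1bb members scored up to 7.67 and 6.73 in the lower list. Immediate-early genes had 14 of 105 (13.3%), against 14 of 112 (12.5%). Of the 14 members, Nr4a2 gave 5 and Btg1, an antiproliferative gene, 4. The top Btg1 member, at 379.0 kb, scored 11.07 and 9.34.

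Homing, adhesion and surface genes had 8 of 44 (18.2%), against 10 of 45 (22.2%) missing only from Ery Luc, and 4 of the 8 had no neighbour within 20 kb. Cxcr4, the receptor for the niche chemokine CXCL12, had 3 of 13, with 30, 35 and 23 distal contacts. Cytokine signalling genes had 9 of 94 (9.57%, 4.47% to 17.4%), against 15 of 101 (14.9%). They included 1 of 44 at Spred1, 2 of 4 at the kinase gene Lyn and 1 of 4 at the receptor gene Epor. Cell cycle genes had 4 of 37 (10.8%, 3.03% to 25.4%), against 12 of 42 (28.6%) missing only from Ery Luc. Chromatin regulators had 5 of 14 (35.7%, 12.8% to 64.9%), against 5 of 15, with 1 member each at Chd4, Ep300, Hdac1, Kmt2a and Ncor1. Cohesin and CTCF genes had 3 members of 6 eligible contacts, against 1 of 6. They lay at Pds5a (9.48 and 8.26), Smc1a (9.13 and 7.59) and Esco1 (6.09 and 8.15), and the Smc1a fragment had 1, 4 and 0 distal contacts. Mast cell genes had 0 of 3 and lymphoid genes 0 of 1, too few to read. Of the 14 lists, only the globin and red cell membrane genes and the cytokine signalling genes had intervals that ended below 17.5%, and the shares of both that were missing only from Ery Luc were also below the 18.1% of all contacts. In each of these 2 lists, 1 gene held many of the eligible contacts, Car2 with 45 and Spred1 with 44. The intervals treat contacts of 1 fragment as independent, so these low shares cannot be read as a trait of the lists.

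**Figure D4:**
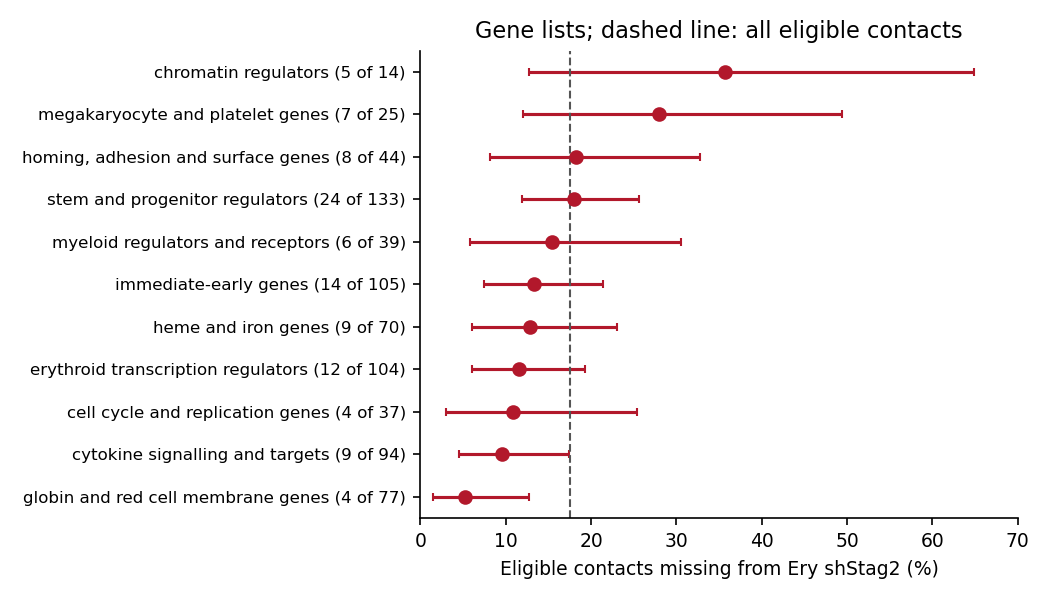
Share of eligible contacts missing from Ery shStag2 (%, horizontal axis) for the gene lists with 10 or more eligible contacts. Points are shares, bars exact 95% intervals for counting error, and the dashed line marks the 17.5% of all eligible contacts; globin and red cell membrane genes stand at 5.19% and stem and progenitor regulators at 18.0%.

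Other ends of members lay within a protein-coding gene in 63.7% (62.1% to 65.3%), against 59.0% (58.2% to 59.7%) of those of contacts that stayed listed. The intervals cover counting error only, and members had lower scores than contacts that stayed listed. The share was not counted for contacts missing only from Ery Luc, so this difference has no yardstick here. They held an annotated gene start in 2.61% (90 members), against 3.44%. With other ends ranked by fragment length into 5 classes of equal size, 14.9% of contacts in the longest class were missing and 17.3% to 18.8% in the others. In 7 members the other end held a miRNA hairpin, as in 23 contacts that stayed listed. The mature miRNAs of the 2 with the highest lower scores are shown, from RefSeq, with the seed (bases 2 to 8) in capitals.
mmu-miR-1970b-5p: uAUGUCACugggcauuggcuuuga
mmu-miR-130c: cAGUGCAAuguuccaaggugug
The miR-130c hairpin lies in chr9:53400072-53401426, which the Ddx10 fragment contacted with scores of 10.04 in HPC and 7.33 in Ery Luc. The miR-1970b hairpin lies in chr16:57610228-57612113, contacted from Tbc1d23 with 8.21 and 8.37. Both had an Ery shStag2 neighbour within 5 kb.

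Contacts that the rule did not use were also counted on the captured fragments with members. Their contacts under 50 kb numbered 6259 in HPC, 3411 in Ery Luc and 2868 in Ery shStag2, a ratio of Ery shStag2 to Ery Luc of 0.841. On the 2251 eligible fragments without a member the numbers were 5251, 3157 and 3102, a ratio of 0.983. On the 280 fragments with 3 or more members the ratio was 0.758, from 718 to 544 contacts. Contacts with other captured fragments at 50 kb to 1 Mb had ratios of 0.985 with members and 1.01 without. Contacts over 1 Mb were more numerous in Ery shStag2 on both, with ratios of 1.29 and 1.26. Fragments chosen for contacts missing only from Ery Luc mirrored this, with a ratio of 1.05 under 50 kb (3141 to 3298) against 0.839 for those with none missing (3203 to 2687). These are sums over fragments. By fragment, 484 of the 2230 with members had fewer short contacts in Ery shStag2 than in Ery Luc, 281 had more and 1465 had the same number or none in both. Without members, 409 of 2251 had fewer and 332 had more. Members and short contacts of a fragment come from the same pooled libraries, and the part of capture efficiency or depth in both was not tested.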

How the data were processed

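Promoter capture Hi-C was read in 6 HPC-7 libraries, deposited as 3 lists that pool 2 libraries each. Each line pairs 2 HindIII fragments with a score that the authors deposited, and the submitters' processing notes name build mm10. The scoring software and its filters, like the depth, are not stated in the labels. The lowest score in each list is 5. The score was used only to choose, rank and describe contacts. A count per list moves with that list's size, so the main shares and those of the gene lists are set beside the same share with the lists exchanged.

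Pairs were matched between lists by their 2 fragments, with pairs of captured fragments matched in either order and counted for both. Distances were taken between fragment midpoints, and genes were placed by RefSeq GRCm38.p6 starts and ends. Shares have exact 95% Clopper-Pearson intervals. Python 3.11.15, pandas 2.3.3, numpy 2.4.6, scipy 1.17.1 and matplotlib 3.10.9 were used, and the selection was tested on simulated lists. Named contacts were the 20 with the highest lower score (at most 2 per captured fragment), up to 4 per gene list, the 5 captured fragments and 5 other ends with the most members (fragments tied at the fifth place were kept), 3 on each side of the score minimum, and loci drawn from these. Some contacts that this rule names are not reported here. The members and the 14 gene lists were chosen with earlier results of these data known. Alternatives covered score, distance, captured other ends, chromosome X, grouping of neighbours and the exchanged lists. The 15 RNA-seq tables were not used here, because their transcript identifiers were not paired with genes.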

Additional observations from a re-analysis of the deposited data

How the results depend on the processing

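Each list pools its 2 libraries, so leaving out a replicate could not be run. No paired analysis was possible because the lists do not keep the replicate numbers. Of 36 recomputed values, 16 stayed within the main value's limits (1.5 times for a count, the exact 95% interval for a share or median) and 20 did not. With minima of 5, 7 and 10 the members numbered 9386, 1217 and 67, the share missing was 28.8%, 9.75% and 1.69%, and the share of members with no Ery shStag2 neighbour within 20 kb was 12.6%, 4.77% and 0%. The median span was 174.0 kb with a minimum of 5 and 169.6 kb with spans of 20 kb to 2 Mb. Keeping captured other ends gave 17.3% without a neighbour. With other ends within 20 kb grouped, every eligible contact was missing in 20.0% of the groups. This is a share of groups and not of contacts, so it is a different measure from the 17.5%. Contacts missing from Ery Luc instead came to 18.1%, with a median span of 219.9 kb and 6.72% without a neighbour. Those missing from HPC instead numbered 5501, or 25.4%, with 258.8 kb and 14.7%. The cause of these moves was not tested.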

Other observations

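Some members had no near neighbour in the Ery shStag2 list. The captured fragment of Uros, a heme synthesis enzyme gene, and Bccip had a member to Dhx32 (6.65 in HPC and 7.35 in Ery Luc) and no contact on its chromosome in Ery shStag2. The Sec22b member within Notch2, a receptor gene of progenitor cells, scored 9.04 and 8.88, with the nearest contact 26.3 kb away. The Smc1a member described above had its nearest 405.8 kb away. Of the 2230 captured fragments with members, 11 had no contact of any kind in the Ery shStag2 list. These examples were chosen after their values were seen.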
